A study of Homo sapiens with 9 samples.

Results

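The proteasome subunits and assembly factors described here were the genes of the deposited expression table whose symbols begin with PSMA to PSMG followed only by a number, and 48 of its 60671 genes met that rule. They comprised 8 alpha subunits, 7 constitutive beta subunits, 4 immune or thymic beta subunits, 6 ATPases and 11 other subunits of the regulatory particle, 3 chaperones of that particle, 4 activators with 1 inhibitor, and 4 chaperones of the core. Other proteasome genes with different symbols, such as POMP and SEM1, lie outside the rule and are described after the members.

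The proteasome is the barrel-shaped protease that degrades most short-lived and damaged proteins in human cells. Its core, the 20S particle, is built from outer rings of alpha subunits, which form the gate, and inner rings of beta subunits, of which PSMB5, PSMB6 and PSMB7 carry the active sites. The 19S regulatory particle caps the core, recognises ubiquitin chains and unfolds substrates with a ring of PSMC ATPases. After interferon exposure, newly built cores take up PSMB8, PSMB9 and PSMB10 in place of PSMB5, PSMB6 and PSMB7, which gives the immunoproteasome. The transcription factor NFE2L1 is known to raise transcription of subunit genes when proteasome activity falls. In heart muscle cells, which divide little, the proteasome is a main route for removing misfolded contractile proteins.

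Polyadenylated RNA was sequenced from AC16 cells, an immortal human line obtained from adult ventricular tissue by fusion with a fibroblast line, and labelled here as cardiomyocytes. Of the 9 libraries, 3 came from cells in high glucose that also received chrysin, a plant flavone, 3 from cells in high glucose, and 3 from cells in low glucose, with no other agent or allele given for any group. The glucose concentrations, the chrysin dose, the length of treatment, any osmotic or solvent control and whether the libraries of a group came from separate cultures are not stated in the labels, so p-values cover the scatter among the libraries at hand, part or all of which could be technical. The study's title concerns chrysin and ferroptosis, an iron-dependent form of cell death, in diabetic heart muscle disease.

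Reads recovered from the expression values totalled 18329839 to 22158982 in the chrysin libraries, 19457798 to 23024300 in the high glucose libraries and 18171842 to 20863778 in the low glucose libraries. Of 11 heart muscle markers 2 reached a mean of 0.5 FPKM (fragments per kilobase, scaled for depth) over the 9 libraries, ACTC1 and GATA4, whereas 3 were at 0 in every library; MYH6, MYH7 and TNNT2 were among the 9 under that level. ACTC1 reached it through the chrysin libraries, averaging 4.83 FPKM there, 0.389 FPKM in high glucose and 0.385 FPKM in low glucose, and the summed heart muscle markers were 14.1 to 15.1 FPKM, 9.70 to 11.2 FPKM and 9.18 to 10.1 FPKM in those groups. All 7 fibroblast markers reached it, and their summed level was 6184 to 6352 FPKM with chrysin, 8765 to 9256 FPKM in high glucose and 7347 to 7647 FPKM in low glucose. Mitochondrially encoded genes held 3.80% to 3.89% of the total with chrysin, against 2.80% to 3.04% in high glucose and 2.79% to 2.91% in low glucose. Summed leukocyte markers were 3.29 to 3.79 FPKM with chrysin, 5.08 to 5.33 FPKM in high glucose and 2.91 to 3.38 FPKM in low glucose, and endothelial markers stayed under 1 FPKM in sum. Within the leukocyte list CD14 averaged 1.94 FPKM with chrysin, 3.91 FPKM in high glucose and 2.22 FPKM in low glucose, LST1 0.8662, 0.4004 and 0.1519 FPKM, and PTPRC 0.722, 0.818 and 0.703 FPKM in the same groups. The part of these shifts in the proteasome results below was not tested, and in bulk RNA fewer cells of a type and less RNA per cell cannot be told apart.

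Most proteasome genes were abundant in AC16 cells, at levels that varied widely. Averaged over the 9 libraries, 37 of the 48 had a mean of at least 50 FPKM, 2 lay between 20 and 50 FPKM and 9 were under 20 FPKM, with a median of 93.8 FPKM. The highest were PSMD2, the large scaffold subunit of the regulatory particle, at 617 FPKM, the alpha subunit PSMA7 at 563 FPKM and the trypsin-like catalytic subunit PSMB7 at 371 FPKM. PSMD4, a ubiquitin receptor, came next at 235 FPKM. At the other end, the testis subunit PSMA8 had no read in any library and the thymus subunit PSMB11 had at most 2 reads in any library. All members together held 0.851% to 0.859% of the summed FPKM with chrysin, 0.876% to 0.909% in high glucose and 0.846% to 0.854% in low glucose.

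**Figure D1:**
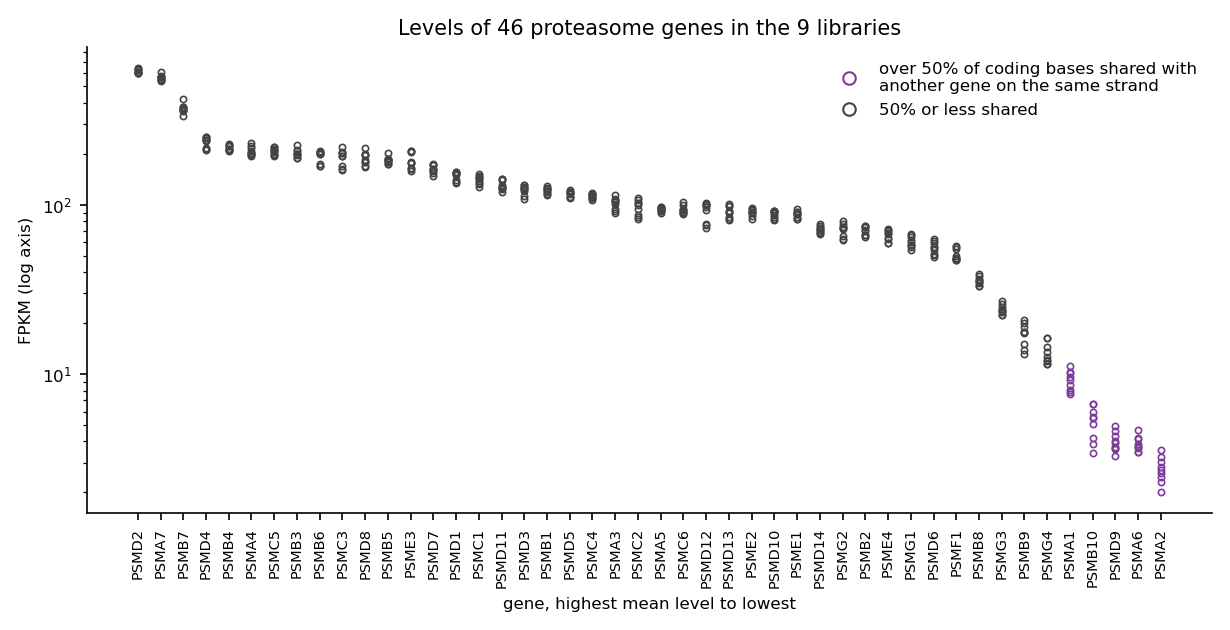
FPKM on a log axis for the 46 proteasome genes above 0.1 FPKM on average, in order of mean level, with 1 open circle per library (9 per gene). The 5 genes drawn in purple share over 50% of their coding bases with another gene on the same strand and are the 5 lowest.

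The subunits of 1 ring are present in equal numbers in the particle, yet a few members stood far below the rest. PSMA1 averaged 9.20 FPKM, PSMA2 2.75 FPKM and PSMA6 3.88 FPKM, whereas the other 4 alpha subunits above 0 lay between 93.9 FPKM for PSMA5 and 563 FPKM for PSMA7. PSMB10 at 5.21 FPKM and the regulatory particle chaperone PSMD9 at 4.0 FPKM were as low. In the GENCODE 29 annotation these 5 are the members that share over 50% of their coding bases with a second protein-coding gene on the same strand: 88.6% of the coding bases of PSMA1, 97.1% of PSMA2, 70.4% of PSMA6, 58.3% of PSMB10 and 58.7% of PSMD9. The second genes, AC018523.2, AC010132.3, AL121594.1, AC040162.1 and AC069503.2, averaged at most 0.238 FPKM in the table. Which annotation the authors counted against, and how they treated reads on exons shared by several genes, are not given here, so the levels of these 5 genes are uncertain and their part in the low values was not tested. Likewise, whether counting used strand is not given: PSMC1 shares 47.7% of its coding bases with NRDE2 on the other strand, PSMD7 28.4% with AC009120.2, PSMB8 14.0% with PSMB8-AS1 and PSMC5 10.5% with FTSJ3.

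High glucose against low glucose asked whether the sugar load moved proteasome genes. The changes were small and upward: 15 of the 46 members tested rose, none fell, and 31 did not pass the test, a limma fit over the 16996 genes whose mean reached 0.5 FPKM in some group, with a Benjamini-Hochberg adjusted p under 0.05. Over all genes tested, 14.6% rose and 8.91% fell. The members' median difference was 0.095 on the log2(FPKM + 0.5) scale used for all differences here, against 0.025 over all genes. At an unadjusted p under 0.05, 1 member was lower, PSME4, and limma voom on the recovered reads called 16 higher and 0 lower. Median-of-ratios scaling gave 10 members higher and 1 lower, with a median difference of 0.066. Correction for GC content and length gave 14 higher and 1 lower, with a median of 0.064. Proteasome genes are well expressed and so measured more tightly, with a median standard error of 0.036 against 0.084 over all genes. Among the 3051 genes averaging 50 FPKM or more, 27.4% rose and 15.0% fell, and of the 37 members at that level 15 (40.5%) rose and 0 fell. The high glucose library of replicate 1 had the highest summed member level, 6402 FPKM, against 6052 and 6167 FPKM in the other high glucose libraries and 5922, 5880 and 5850 FPKM in low glucose.

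**Figure D2:**
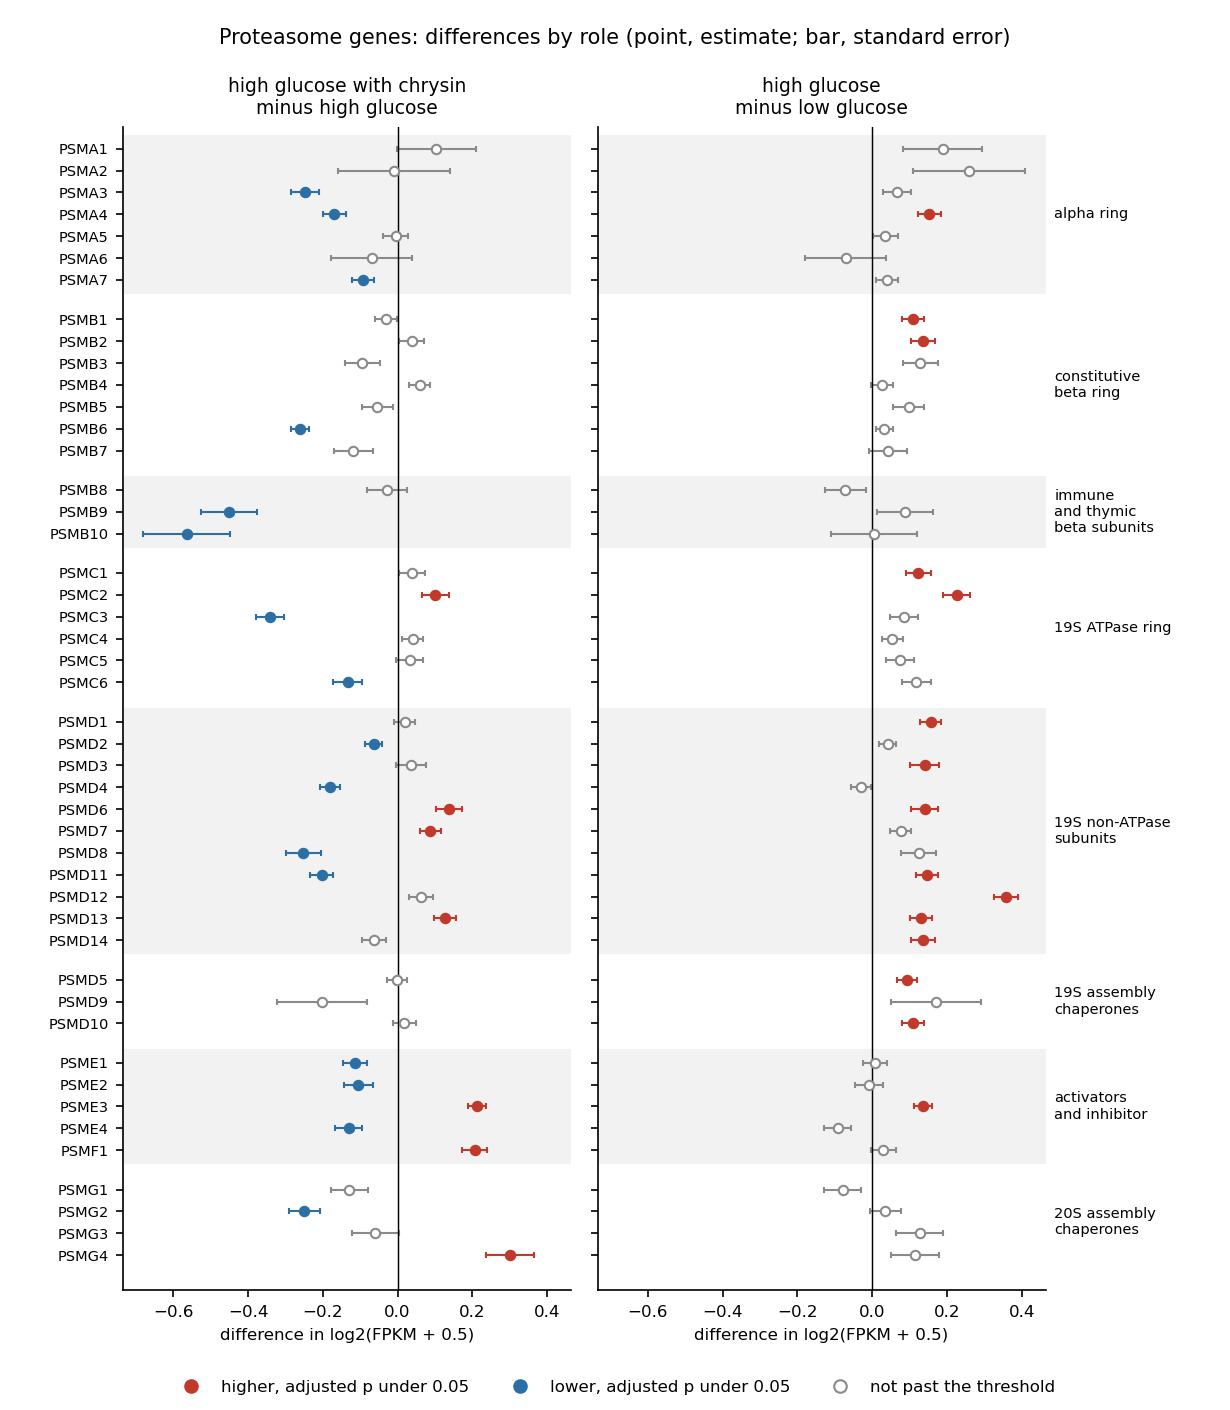
Differences in log2(FPKM + 0.5) with their standard errors for the 46 members tested, grouped by role, for chrysin in high glucose minus high glucose (left) and high glucose minus low glucose (right), 3 libraries a group. Filled points passed an adjusted p under 0.05: 7 red and 16 blue on the left, and 15 red on the right.

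The regulatory particle held most of the rises, 9 of its 17 subunits, where 27.4% of genes averaging 50 FPKM or more rose. PSMD12, a subunit of the lid, the outer part of the particle, had 99.9, 93.2 and 97.0 FPKM in high glucose, against 76.1, 76.7 and 73.3 FPKM in low glucose. The groups did not overlap, and the difference, 0.36 ± 0.033 (standard error), was the largest of any member in this comparison, with an adjusted p of 5.1e-05. PSMC2, an ATPase of the unfolding ring, had 101.9, 95.1 and 99.9 FPKM in high glucose and 82.4, 84.6 and 86.5 FPKM in low glucose. Every high glucose library was above every low glucose library, a rise of 0.23 ± 0.036 with an adjusted p of 0.0014. PSMD1, the second large scaffold of the particle, had 149.3, 152.4 and 157.2 FPKM in high glucose, against 140.0, 136.2 and 135.3 FPKM in low glucose, and rose by 0.16 ± 0.028 (adjusted p = 0.0027). The lid subunits PSMD11, PSMD13, PSMD6 and PSMD3 rose by 0.13 to 0.15, as did PSMD14, the deubiquitinating enzyme of the lid, at 0.14 ± 0.032 (adjusted p = 0.011). PSMC1, another ATPase of the ring, had 147.8, 138.6 and 142.7 FPKM in high glucose and 132.2, 134.3 and 127.4 FPKM in low glucose, a rise of 0.12 ± 0.034 (adjusted p = 0.024). The other scaffold, PSMD2, had 631.9 ± 8.25 FPKM (SD, n = 3) in high glucose and 614.4 ± 14.5 FPKM in low glucose and did not pass the test, nor did the ubiquitin receptor PSMD4 at -0.03 ± 0.027. PSMC6 sat at the threshold, with a difference of 0.12 ± 0.039 and an adjusted p that rounds to 0.05.

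Of the 3 chaperones that help build the regulatory particle, 2 passed the test in limma and 0 with voom on the recovered reads. PSMD10, also known as gankyrin, had 90.6, 87.4 and 91.9 FPKM in high glucose, against 81.8, 83.0 and 85.3 FPKM in low glucose, a rise of 0.11 ± 0.030 (adjusted p = 0.025). PSMD5 had 121.6, 115.6 and 118.8 FPKM in high glucose and 111.7, 111.5 and 110.3 FPKM in low glucose, a rise of 0.09 ± 0.027 (adjusted p = 0.030). In both the groups did not overlap, but the steps were under 10%, and the call was lost in 6 of 19 other settings for PSMD10 and in 10 for PSMD5. PSMD9 had 4.61, 4.92 and 3.69 FPKM in high glucose and 4.01, 3.60 and 3.89 FPKM in low glucose, with overlapping groups and an adjusted p of 0.36.

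Of the 14 constitutive core subunits tested, 3 rose in high glucose, a share between the 14.6% of all genes and the 27.4% of genes averaging 50 FPKM or more. PSMA4, an alpha ring subunit, had 231.4, 217.8 and 223.3 FPKM, against 202.2, 207.0 and 195.5 FPKM in low glucose, a rise of 0.15 ± 0.031 (adjusted p = 0.0049). The structural beta subunits PSMB2 and PSMB1 rose by 0.14 ± 0.033 (adjusted p = 0.013) and 0.11 ± 0.029 (adjusted p = 0.019). PSMB2 averaged 72.2 ± 2.70 FPKM in high glucose and 65.6 ± 0.809 FPKM in low glucose, and PSMB1 126.1 ± 2.94 FPKM and 116.8 ± 2.13 FPKM in the same groups (SD, n = 3 each). None of the 3 catalytic subunits passed the limma test; PSMB5 had an unadjusted p of 0.041 (adjusted p = 0.12). The 3 immune subunits tested and the core chaperones PSMG1 to PSMG4, whose differences ran from -0.08 to 0.13, gave 0 calls in limma, 0 at an unadjusted p under 0.05 and 0 with voom.

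Among the activators, the nuclear activator PSME3 was the 1 that rose. It had 177.5, 177.5 and 179.0 FPKM in high glucose, against 162.1, 164.3 and 159.1 FPKM in low glucose. The groups did not overlap, and the rise was 0.14 ± 0.024 (adjusted p = 0.0021). The interferon-inducible activator subunits PSME1 and PSME2 differed by 0.01 ± 0.032 and -0.01 ± 0.038. PSME4, an activator known from sperm development, had 64.0, 68.5 and 67.2 FPKM in high glucose and 70.7, 70.3 and 71.8 FPKM in low glucose; the groups did not overlap, but the adjusted p was 0.095. Of the 15 rises, 8 passed under all 19 other settings tried (PSMA4, PSMC2, PSMD1, PSMD11, PSMD12, PSMD13, PSMD14 and PSME3). PSMB2 lost its call only without low glucose replicate 3 (adjusted p = 0.051), PSMD6 only without low glucose replicate 1 (adjusted p = 0.060), and PSMB1, PSMC1, PSMD3, PSMD5 and PSMD10 in 3 to 10 settings each.

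Chrysin in high glucose was compared with high glucose alone to see what the flavone did to these genes. Here the members split: 7 of 46 rose, 16 fell and 23 did not pass the test, with a median difference of -0.057. Over all genes tested, 24.9% rose and 20.9% fell, with a median of 0.030. Among those averaging 50 FPKM or more, 33.4% rose and 31.1% fell, and of the 37 members at that level 6 (16.2%) rose and 14 (37.8%) fell. The members that passed in the core and among the immune subunits were lower, and the regulatory particle, the activators and the core chaperones each held members of both kinds; no difference between roles was tested.

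Of the 14 constitutive core subunits tested, 4 fell and 0 rose in the limma fit. At an unadjusted p under 0.05, or with voom, 0 were higher. The share that fell lay between the 20.9% of all genes and the 31.1% of genes averaging 50 FPKM or more. Rises made up 24.9% and 33.4% of those genes. PSMB6, which carries the caspase-like site, had 174.0, 168.4 and 170.4 FPKM with chrysin, against 206.6, 204.3 and 203.7 FPKM in high glucose, and averaged 200.4 ± 0.611 FPKM in low glucose (SD, n = 3). Every chrysin library was below every other library, and the difference from high glucose was -0.26 ± 0.023 (adjusted p = 7.4e-06). PSMB7, the trypsin-like subunit, had 334.5, 364.0 and 363.6 FPKM with chrysin and 418.9, 358.8 and 376.3 FPKM in high glucose, overlapping groups with an adjusted p of 0.087; it was lower with voom (adjusted p = 0.034) and in 4 of 19 other settings in all. PSMB5, the chymotrypsin-like subunit and the target of the drug bortezomib, had 186.4, 184.4 and 179.1 FPKM with chrysin, 203.4, 186.6 and 181.7 FPKM in high glucose and 174.5, 175.1 and 184.6 FPKM in low glucose, and did not pass against high glucose, except with correction for GC content and length (-0.10, adjusted p = 0.032). In the alpha ring, PSMA3 had 93.9, 92.0 and 89.1 FPKM with chrysin, against 114.1, 104.5 and 108.5 FPKM in high glucose, and fell by 0.25 ± 0.038 on the log2 scale (adjusted p = 0.00035). PSMA4 had 199.6, 201.9 and 196.4 FPKM with chrysin and 231.4, 217.8 and 223.3 FPKM in high glucose, and fell by 0.17 ± 0.031 (adjusted p = 0.0011), to about its low glucose level, from which it differed by -0.02 ± 0.031. PSMA7 fell by 0.09 ± 0.030 (adjusted p = 0.024), a call lost in 4 of 19 other settings. PSMA5 stayed between 89.6 and 96.6 FPKM in all 9 libraries and passed in no comparison.

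The immunoproteasome subunits were a minor part of the catalytic subunits in these cells, and chrysin lowered 2 of the 3. Over all genes tested, 20.9% were lower with chrysin than in high glucose. PSMB9, the replacement for PSMB6, had 13.1, 13.9 and 15.1 FPKM with chrysin, 20.81, 17.38 and 20.02 FPKM in high glucose and 17.7, 19.1 and 17.8 FPKM in low glucose. All chrysin libraries were below all others, a fall of 0.45 ± 0.075 against high glucose (adjusted p = 0.00060). PSMB10, the replacement for PSMB7, had 3.89, 3.41 and 4.19 FPKM with chrysin, 6.64, 5.58 and 5.49 FPKM in high glucose and 5.06, 5.95 and 6.68 FPKM in low glucose. It fell by 0.56 ± 0.116 (adjusted p = 0.0023), the largest difference of any member, on 50 to 73 reads a library with chrysin and 84 to 106 reads in high glucose, and with the shared coding bases described above. PSMB8, the replacement for PSMB5, did not follow: it had 33.4, 35.1 and 35.4 FPKM with chrysin, 36.2, 33.2 and 36.6 FPKM in high glucose and 37.9, 39.1 and 34.6 FPKM in low glucose, with a difference of -0.03 ± 0.054 against high glucose (adjusted p = 0.70). PSMB8 and PSMB9 are neighbours on chromosome 6 of GRCh38, at chr6:32840717-32844703 on the minus strand and chr6:32844136-32859585 on the plus strand, and their exons share 139 bases.

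**Figure D3:**
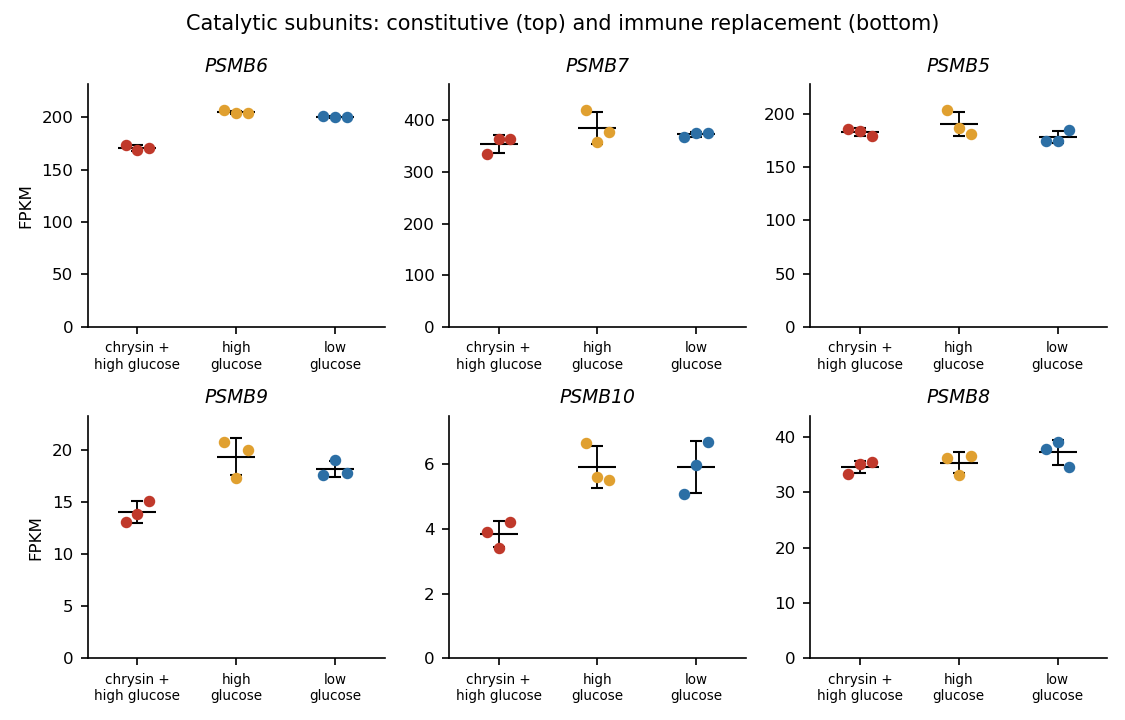
FPKM of the 3 constitutive catalytic subunits (top) and the immune subunit that replaces each (bottom) in the 3 libraries of each group, with the mean and SD in black; each axis starts at 0. PSMB6, PSMB9 and PSMB10 are lowest in the chrysin libraries, whereas the groups overlap for PSMB5 and PSMB8.

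Set against its partner, each immune subunit held a different share. PSMB8 was 15.9% ± 0.665 of the summed FPKM of PSMB8 and PSMB5 with chrysin, 15.7% ± 0.963 in high glucose and 17.3% ± 1.31 in low glucose (SD, n = 3). PSMB9 was 7.60% ± 0.580 of PSMB9 and PSMB6 with chrysin, 8.65% ± 0.706 in high glucose and 8.33% ± 0.346 in low glucose, and these shares overlapped, PSMB6 being lower with chrysin as well. PSMB10 was 1.07% ± 0.125 of PSMB10 and PSMB7 with chrysin, 1.51% ± 0.063 in high glucose and 1.56% ± 0.192 in low glucose, and here every chrysin share was below every other. The shares rest on RNA levels per length and say nothing of how much of each protein was built into particles. That of PSMB10 also carries the uncertainty of its level, as 58.3% of its coding bases are shared with another gene on the same strand.

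In the regulatory particle, chrysin lowered 6 of the 17 subunits and raised 4, where 31.1% of genes averaging 50 FPKM or more fell and 33.4% rose. PSMC3, an ATPase of the ring, had 160.5, 168.6 and 163.8 FPKM with chrysin, 219.1, 204.5 and 201.7 FPKM in high glucose and 203.3, 193.1 and 193.0 FPKM in low glucose. All chrysin libraries were below all others, and the fall against high glucose was 0.34 ± 0.037 (adjusted p = 2.8e-05). Its ring neighbour PSMC2 went the other way, with 102.5, 109.2 and 106.7 FPKM with chrysin and 101.9, 95.1 and 99.9 FPKM in high glucose, a difference of 0.10 ± 0.036 (adjusted p = 0.042) that was lost in 10 of 19 other settings. PSMC6 fell by 0.13 ± 0.039 (adjusted p = 0.017), lost in 3 settings, and PSMC1, PSMC4 and PSMC5 differed by 0.03 to 0.04 and did not pass. Among the other subunits, PSMD8 of the lid had 178.9, 166.2 and 168.7 FPKM with chrysin, 215.9, 200.6 and 195.6 FPKM in high glucose and 197.0, 185.0 and 179.4 FPKM in low glucose, and fell by 0.25 ± 0.046 against high glucose (adjusted p = 0.0011). The ubiquitin receptor PSMD4 had 210.7, 214.8 and 216.1 FPKM with chrysin, 249.0, 236.9 and 241.5 FPKM in high glucose and 250.5, 241.6 and 250.4 FPKM in low glucose. It was lower with chrysin in every library, by 0.18 ± 0.027 against high glucose (adjusted p = 0.00031). PSMD11 had 125.6, 119.0 and 124.4 FPKM with chrysin, against 142.6, 141.5 and 140.7 FPKM in high glucose, and fell by 0.20 ± 0.030 (adjusted p = 0.00030).

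Other lid subunits were higher with chrysin. PSMD13 had 98.81, 97.95 and 100.9 FPKM with chrysin, 90.8, 92.0 and 89.7 FPKM in high glucose and 82.8, 80.9 and 85.2 FPKM in low glucose, so that the 3 groups did not overlap; the chrysin step was 0.13 ± 0.029 (adjusted p = 0.0049). PSMD6 had 59.8, 60.7 and 63.2 FPKM with chrysin, 54.3, 56.1 and 56.4 FPKM in high glucose and 49.1, 50.8 and 51.4 FPKM in low glucose, again with no overlap and a chrysin step of 0.14 ± 0.035 (adjusted p = 0.0077). PSMD12, the member most raised in high glucose, had 99.5, 102.3 and 101.4 FPKM with chrysin; its difference from high glucose, 0.06 ± 0.033, did not pass (adjusted p = 0.15). PSMD2, the most abundant member, fell by 0.06 ± 0.023 (adjusted p = 0.042), lost in 9 of 19 settings, and PSMD7 rose by 0.09 ± 0.028 (adjusted p = 0.025), lost in 5. The chaperones PSMD5 and PSMD10 had 117.2, 118.7 and 119.6 FPKM and 91.9, 91.5 and 89.8 FPKM with chrysin and differed from high glucose by -0.002 ± 0.027 and 0.02 ± 0.030. PSMD9, at 4.29, 3.27 and 3.72 FPKM with chrysin, did not pass either (adjusted p = 0.20).

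**Figure D4:**
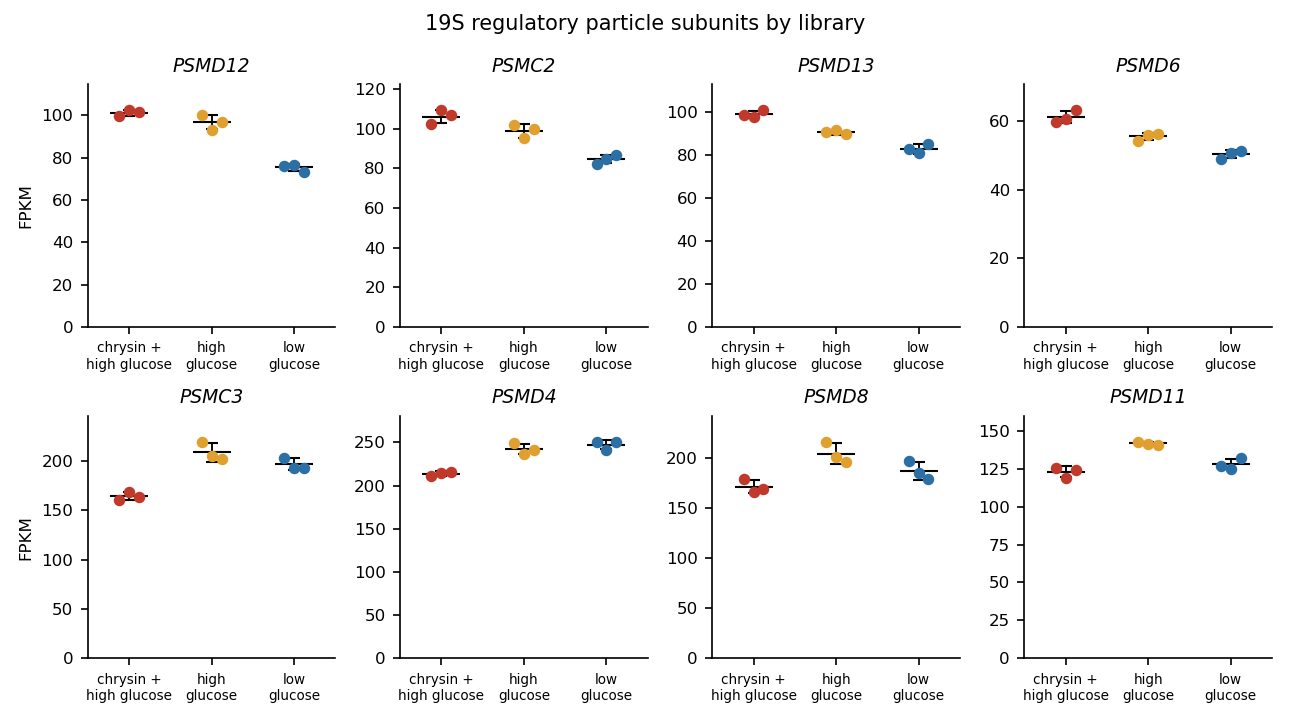
FPKM of 8 regulatory particle subunits in the 3 libraries of each group, with the mean and SD in black; each axis starts at 0. PSMD13 and PSMD6 are highest with chrysin and lowest in low glucose, whereas PSMC3, PSMD4 and PSMD8 are lowest with chrysin.

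All 5 genes of the activators and the inhibitor passed the test with chrysin, 2 upward and 3 downward. Among genes averaging 50 FPKM or more, 33.4% rose and 31.1% fell in this comparison. PSME3 had 204.0, 207.8 and 207.3 FPKM with chrysin, against 177.5, 177.5 and 179.0 FPKM in high glucose, a rise without overlap of 0.21 ± 0.024 (adjusted p = 3.6e-05). PSMF1, which encodes the inhibitor PI31, had 56.9, 56.4 and 54.9 FPKM with chrysin, 49.8, 48.0 and 47.8 FPKM in high glucose and 48.4, 47.1 and 47.0 FPKM in low glucose. All chrysin libraries were above all others, by 0.21 ± 0.033 against high glucose (adjusted p = 0.00043). PSME4 had 63.0, 59.7 and 59.5 FPKM with chrysin, below the 64.0, 68.5 and 67.2 FPKM of high glucose, and fell by 0.13 ± 0.036 (adjusted p = 0.012). PSME1 had 82.6, 82.6 and 84.6 FPKM with chrysin, 94.0, 88.0 and 88.4 FPKM in high glucose and 90.3, 90.1 and 88.6 FPKM in low glucose, and fell by 0.11 ± 0.032 (adjusted p = 0.015). Its partner PSME2 had 82.1, 89.0 and 85.6 FPKM with chrysin, 96.0, 88.9 and 91.1 FPKM in high glucose and 93.95, 91.03 and 92.67 FPKM in low glucose; the first 2 groups overlapped, and the fall of 0.10 ± 0.038 (adjusted p = 0.046) was lost in 12 of 19 other settings.

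The chaperones that assemble the core also moved apart. PSMG2, which pairs with PSMG1 to start alpha ring assembly, had 65.9, 62.8 and 62.1 FPKM with chrysin, 73.6, 73.7 and 79.7 FPKM in high glucose and 72.6, 76.8 and 72.1 FPKM in low glucose. All chrysin libraries were lowest, a fall of 0.25 ± 0.042 against high glucose (adjusted p = 0.00064). PSMG1 had 54.4, 57.8 and 56.0 FPKM with chrysin, 61.8, 58.0 and 64.3 FPKM in high glucose and 67.4, 60.7 and 66.5 FPKM in low glucose; its chrysin libraries were also lowest, but the difference from high glucose, -0.13 ± 0.050, missed the threshold (adjusted p = 0.054) and passed in 7 of 19 other settings. PSMG4, which pairs with PSMG3 in the same assembly, had 14.6, 16.3 and 16.4 FPKM with chrysin, 12.59, 12.02 and 13.45 FPKM in high glucose and 11.4, 11.5 and 12.1 FPKM in low glucose. It rose by 0.30 ± 0.064 against high glucose (adjusted p = 0.0029), the largest rise of any member in this comparison. PSMG3 had 22.2, 25.9 and 24.4 FPKM with chrysin, 26.96, 24.98 and 23.66 FPKM in high glucose and 23.4, 23.2 and 22.4 FPKM in low glucose, and did not pass (adjusted p = 0.47).

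**Figure D5:**
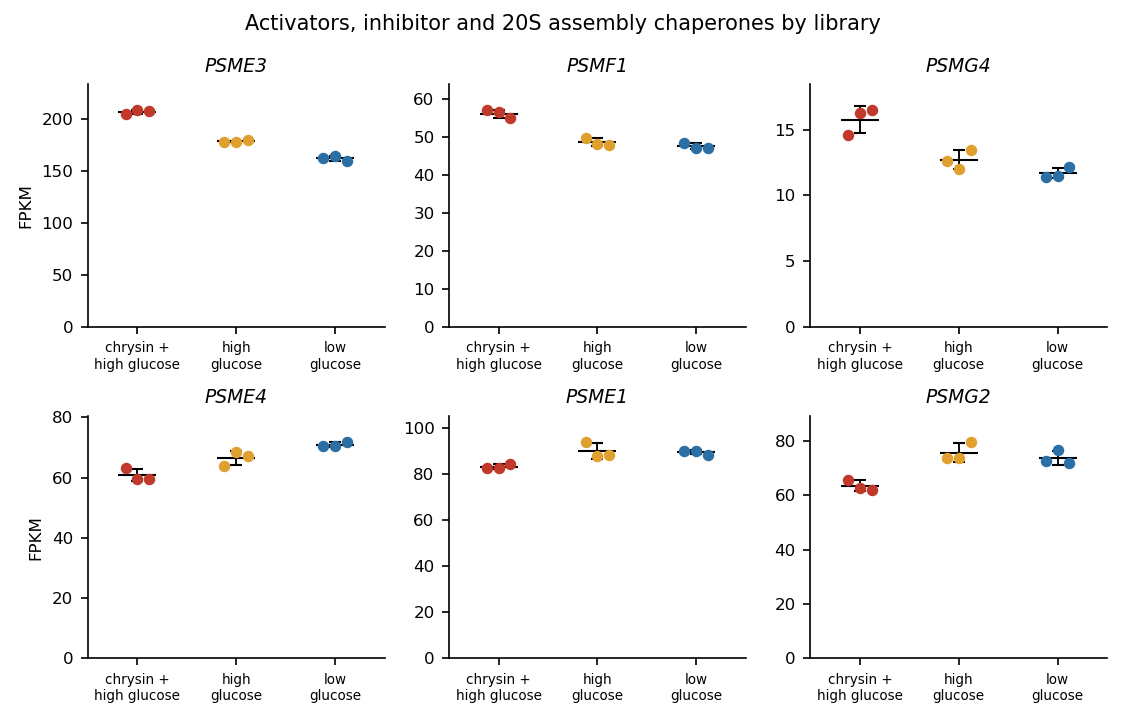
FPKM of 3 activator genes, the inhibitor gene PSMF1 and 2 core chaperones in the 3 libraries of each group, with the mean and SD in black; each axis starts at 0. PSME3, PSMF1 and PSMG4 are highest with chrysin, and PSME4, PSME1 and PSMG2 are lowest with chrysin.

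Chrysin in high glucose set against low glucose gave the widest spread of differences, for members (SD 0.209) as for all genes (SD 0.473). Of the members, 19 were higher, 12 lower and 15 not past the test, where 29.7% of all genes rose and 21.3% fell. Among genes averaging 50 FPKM or more, 40.2% rose and 30.5% fell. Of the 37 members at that level, 17 (45.9%) rose and 10 (27%) fell. The median over members was 0.038, against 0.051 over all genes. The largest rises were PSMD12 at 0.42 ± 0.033 (adjusted p = 2.4e-06), PSMG4 at 0.42 ± 0.064 (adjusted p = 0.00030), PSME3 at 0.35 ± 0.024 (adjusted p = 7.9e-07) and PSMC2 at 0.33 ± 0.036 (adjusted p = 2.8e-05). The largest falls were PSMB10 at -0.56 ± 0.116 (adjusted p = 0.0021), PSMB9 at -0.36 ± 0.075 (adjusted p = 0.0020), PSMC3 at -0.26 ± 0.037 (adjusted p = 0.00017) and PSMB6 at -0.23 ± 0.023 (adjusted p = 1.4e-05). PSMG1 was lower here by 0.21 ± 0.050 (adjusted p = 0.0049), and PSMB8 was not called at -0.10 ± 0.054 (adjusted p = 0.15). PSMA1 was called higher at 0.29 ± 0.105 (adjusted p = 0.037), a call lost in 9 of 19 other settings. The 3 comparisons share libraries and are not independent of each other. With median-of-ratios scaling or with correction for GC content and length, 12 rather than 19 members were higher than in low glucose.

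Genes outside the symbol rule that belong to the particle or attend it were read from a list of 11. In high glucose 2 were higher and 2 lower than in low glucose, and with chrysin 4 were higher and 1 lower than in high glucose. All genes tested gave 14.6% higher and 8.91% lower in the first comparison, and 24.9% higher and 20.9% lower in the second. ADRM1, a ubiquitin receptor of the regulatory particle, averaged 204.1 FPKM in high glucose and 173.5 FPKM in low glucose, a rise of 0.23 ± 0.045 (adjusted p = 0.0041), and 221.3 FPKM with chrysin. USP14, a deubiquitinase that binds the particle, averaged 94.2 FPKM in high glucose and 87.1 FPKM in low glucose (adjusted p = 0.030, a call lost in 7 of 19 other settings), and rose to 111.4 FPKM with chrysin, by 0.24 ± 0.033 (adjusted p = 0.00015). PAAF1, a chaperone that binds the ATPase ring, averaged 20.1 FPKM with chrysin, 13.9 FPKM in high glucose and 16.6 FPKM in low glucose: it was lower in high glucose than in low glucose by 0.25 ± 0.060 (adjusted p = 0.012) and higher with chrysin than in high glucose by 0.52 ± 0.060 (adjusted p = 4.7e-05). ECPAS, a scaffold protein that binds the assembled particle, fell by 0.20 ± 0.047 in high glucose (adjusted p = 0.012). UCHL5, another deubiquitinase of the particle, rose by 0.22 ± 0.043 with chrysin (adjusted p = 0.0020), and ZFAND5, a stress-induced activator, fell by 0.27 ± 0.031 (adjusted p = 4.9e-05). The core maturation protein POMP and the small lid subunit SEM1 passed in neither of these comparisons.

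Of 14 genes on the NFE2L1 route, 4 were higher and 3 lower in high glucose than in low glucose. With chrysin, 5 were higher and 8 lower than in high glucose. The shares over all genes tested were 14.6% and 8.91% in the first comparison, and 24.9% and 20.9% in the second. NFE2L1 is anchored in the endoplasmic reticulum, is pulled out by the ligase SYVN1 and its adaptor SEL1L with the ATPase VCP, and is cut and activated by DDI2. NFE2L1 averaged 177.0 FPKM with chrysin, 226.7 FPKM in high glucose and 214.2 FPKM in low glucose, a fall of 0.36 ± 0.031 against high glucose (adjusted p = 6.9e-06) and no call between the glucose groups (adjusted p = 0.085). NFE2L2, its relative in the oxidative stress response, fell by 0.36 ± 0.039 with chrysin (adjusted p = 2.7e-05), and the VCP adaptor NPLOC4 rose by 0.23 ± 0.025 (adjusted p = 2.8e-05). The small Maf proteins that pair with both factors went different ways with chrysin. MAFG rose by 0.67 ± 0.040 (adjusted p = 5.5e-07) and MAFK by 0.19 ± 0.059 (adjusted p = 0.023, lost in 4 of 19 other settings), whereas MAFF averaged 11.7 FPKM with chrysin and 20.8 FPKM in high glucose, a difference of -0.81 ± 0.090 (adjusted p = 3.7e-05); MAFK and MAFF were added after their values were seen. In high glucose SYVN1 averaged 35.1 FPKM, against 67.9 FPKM in low glucose (-0.94 ± 0.049, adjusted p = 7.2e-07), and SEL1L 84.1 FPKM, against 151.5 FPKM (-0.85 ± 0.052, adjusted p = 2.4e-06); both also serve the general removal of proteins from the endoplasmic reticulum. MAFG fell by 0.22 ± 0.040 and HCFC1 rose by 0.23 ± 0.044 in that comparison (adjusted p = 0.0032 and 0.0041).

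NFE2L1 binds antioxidant response elements, and the promoter windows of the members were searched for their core. The letters were TGANNNNGC on either strand, in the 300 bases from 250 before to 50 after each start site listed by RefSeq (GRCh38.p14). Windows were listed for 42 members, 51 windows in all. A match stood in 32 of the 51 windows (62.7%), against 41.8% of all 35116 promoter windows in the table, and in none for the longer form GCTGAGTCA, which 0.561% of all windows held. Of the 26 members tested that had a match, 8 rose in high glucose, and with chrysin 1 rose and 9 fell. Of the 14 with a window but no match, 6 rose in high glucose, and with chrysin 6 rose and 4 fell. Among all genes tested, 14.6% rose in high glucose, and with chrysin 24.9% rose and 20.9% fell. For genes averaging 50 FPKM or more, these shares were 27.4%, 33.4% and 31.1%. The median difference with chrysin was -0.07 for the members with a match and 0.06 for those without, and the difference between them was not tested. A match describes the letters of the window and nothing more. The stretches before the start site of PSMD12, the member most raised in high glucose (chr17:67366578-67366827, minus strand), and of PSMC3, the regulatory particle subunit most lowered by chrysin (chr11:47426440-47426689, minus strand), are shown with the matches in capitals.
PSMD12: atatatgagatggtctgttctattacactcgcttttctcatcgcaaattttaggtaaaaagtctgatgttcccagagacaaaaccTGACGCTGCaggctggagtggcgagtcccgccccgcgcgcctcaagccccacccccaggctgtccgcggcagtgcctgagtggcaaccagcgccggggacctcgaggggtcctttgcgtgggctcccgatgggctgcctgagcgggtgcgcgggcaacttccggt
PSMC3: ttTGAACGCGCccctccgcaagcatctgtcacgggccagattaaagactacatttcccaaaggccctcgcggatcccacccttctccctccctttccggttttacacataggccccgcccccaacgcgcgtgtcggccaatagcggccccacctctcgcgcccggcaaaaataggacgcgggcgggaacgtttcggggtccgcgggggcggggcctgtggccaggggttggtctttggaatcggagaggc

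Ubiquitin genes and shuttle factors, which mark and deliver substrates, were read from a list of 12. Of these, 4 passed in high glucose against low glucose, all upward, and with chrysin 3 rose and 5 fell against high glucose. All genes tested gave 14.6% up and 8.91% down in the first comparison, and 24.9% up and 20.9% down in the second. UBB, a polyubiquitin gene, averaged 1159 FPKM in high glucose and 1016 FPKM in low glucose, a rise of 0.19 ± 0.030 (adjusted p = 0.0014). With chrysin UBB averaged 861.9 FPKM, 0.43 ± 0.030 below high glucose (adjusted p = 1.6e-06). Ubiquitin genes hold near-identical repeats, and how reads matching more than 1 of them were counted is not given. The activating enzyme UBA1 and the shuttle UBQLN2 rose in high glucose by 0.12 ± 0.033 and 0.19 ± 0.054 (adjusted p = 0.025 for each), calls lost in 6 and 4 of 19 other settings; with correction for GC content and length the UBA1 difference was 0.06 (adjusted p = 0.16). With chrysin the shuttles UBQLN4 and UBQLN2 fell by 0.31 ± 0.042 (adjusted p = 0.00014) and 0.30 ± 0.054 (adjusted p = 0.00088).

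Interferon and antigen presentation genes, the setting in which PSMB8, PSMB9, PSMB10, PSME1 and PSME2 are best known, were read from a list of 17, of which 16 were tested. In high glucose 4 rose and 4 fell against low glucose, and with chrysin 2 rose and 12 fell against high glucose. The shares over all genes tested were 14.6% up and 8.91% down in the first comparison, and 24.9% up and 20.9% down in the second. With chrysin HLA-B and HLA-C, which present peptides at the cell surface, fell against high glucose by 0.44 ± 0.043 and 0.29 ± 0.032 (adjusted p = 1.5e-05 and 3.1e-05), with the caution that these near-identical and variable genes can share reads. Chosen after their values were seen, IRF1, which drives PSMB9 transcription, fell by 0.66 ± 0.101 (adjusted p = 0.00033), and the peptide transporter genes went another way, TAP2 rising by 0.39 ± 0.068 (adjusted p = 0.00075) and TAP1 differing by 0.002 ± 0.063. In high glucose ERAP1, HLA-C and GBP1 were lower than in low glucose, by 0.29, 0.14 and 0.18, and TAPBP was higher by 0.21 (adjusted p = 0.0023, 0.0094, 0.012 and 0.0050 in that order).

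The same promoter windows were searched on either strand for further elements. The interferon-gamma activated site, TTCNNNGAA, stood in 8 of the 51 member windows (15.7%), against 7.66% of all windows. The CCAAT box stood in 20 of the 51 (39.2%), against 34.6% of all windows. The core of the interferon-stimulated response element, GAAANNGAA, was searched as well. It stood in 8 of the 51 member windows (15.7%), against 8.11% of all windows. In 5 of these, those of PSMB8, PSMB10, PSME1, PSME2 and PSMG4, the 9 bases were the same, GAAAGCGAA or its reverse complement, which 0.268% of all windows held; that form was counted after the matches were seen. The table's window for PSMB9 held no match to GAAANNGAA. Of the 8 members with a GAAANNGAA match, 2 rose and 4 fell with chrysin against high glucose. Of the 32 tested with a window but no such match, 5 rose and 9 fell. All genes tested gave 24.9% up and 20.9% down, and those averaging 50 FPKM or more 33.4% and 31.1%. Among the members with the match, PSMA4 fell, PSMC2 rose and PSMB4 did not pass. Of those with the shared 9 bases, PSMB10, PSME1 and PSME2 fell, PSMG4 rose and PSMB8 did not pass. The PSME2 call was lost in 12 of 19 other settings. Any part of these bases in the differences was not tested. The 100 bases from 80 before to 20 after each start site are shown with the GAAANNGAA match in capitals. The stretches are PSMB8 at chr6:32844028-32844127 (minus), PSMB10 at chr16:67936831-67936930 (minus), PSME1 at chr14:24136114-24136213 (plus), PSME2 at chr14:24146591-24146690 (minus) and PSMG4 at chr6:3258867-3258966 (plus).
PSMB8: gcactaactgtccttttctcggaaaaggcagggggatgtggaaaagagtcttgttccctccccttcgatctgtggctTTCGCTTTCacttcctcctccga
PSMB10: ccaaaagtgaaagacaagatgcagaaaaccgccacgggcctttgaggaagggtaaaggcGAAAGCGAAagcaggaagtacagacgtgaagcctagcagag
PSME1: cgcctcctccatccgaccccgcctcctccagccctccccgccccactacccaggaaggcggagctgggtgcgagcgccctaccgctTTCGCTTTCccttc
PSME2: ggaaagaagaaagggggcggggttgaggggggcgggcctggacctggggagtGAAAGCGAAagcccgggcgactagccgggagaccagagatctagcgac
PSMG4: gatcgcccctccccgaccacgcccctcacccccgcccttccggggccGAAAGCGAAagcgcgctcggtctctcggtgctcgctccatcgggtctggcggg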

How the data were processed

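The authors' table holds 60671 genes and 9 libraries; its header names no unit, and the deposited values, scaled by the authors to length and depth, were read as FPKM. Per the submitters' processing notes, the tools were HTSeq 0.13.5, StringTie 2.2.1, HISAT2 2.2.1 and fastp 0.23.4, on hg38, with no roles stated. Whole reads were recovered from the steps of the FPKM values for each of the 28230 genes detected in at least 2 libraries, within 4.6e-05 of a whole read (18171842 to 23024300 reads a library).

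Differences were tested with limma 3.58.1 in R 4.3.3 (trend) on log2(FPKM + 0.5), with all 9 libraries in 1 fit, no block, two-sided contrasts and Benjamini-Hochberg adjustment over the 16996 genes whose mean reached 0.5 FPKM in some group. A fold change on this scale understates that of low genes. The smallest p that an exact permutation test of 3 against 3 allows is 0.1. The test was tested on simulated data. limma voom on the recovered reads, other pseudocounts and filters, other scaling, a replicate block and leaving out libraries were alternatives.

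The members and lists were chosen with earlier results of these data known. Named were all members with few or contrasting roles (PSMB5 to PSMB11, PSMD5, PSMD9, PSMD10, PSME, PSMF and PSMG genes, PSMA8) and, by role and comparison, the 2 members of smallest p in each direction; of each further list, the 4 called genes of smallest p, with NFE2L1, POMP, SEM1 and ADRM1; some of these are not reported here. Positions and overlaps are from GENCODE 29, and promoter sequences from RefSeq (GRCh38.p14).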

Additional observations from a re-analysis of the deposited data

How the results depend on the processing

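Of 2613 values of member genes recomputed under the 19 other settings, 2384 kept their direction and side of the threshold, 140 lost their call and 49 gained one. The other 40 had the opposite sign and passed in neither fit, and 0 called values changed sign. Calls held in every setting for 8 of 15 members in high glucose against low glucose, 17 of 23 in chrysin against high glucose and 21 of 31 in chrysin against low glucose. In high glucose against low glucose, 1 member was lower with median-of-ratios scaling (PSME4, -0.12, adjusted p = 0.037) and 1 with correction for GC content and length (PSMD4, -0.07, adjusted p = 0.039), where the fit as reported gave 0. Under these settings 10 and 14 members were higher, where 15 were reported, and the median was 0.066 and 0.064 in place of 0.095. In chrysin against low glucose, 12 members were higher under either of these settings, where 19 were reported, and the median over members was -0.020 and -0.001 in place of 0.038; the correction covered 98.2% of genes. Without high glucose replicate 1 the median for chrysin against high glucose was -0.02 in place of -0.06. The cause was not tested. Leaving out mitochondrially encoded genes, an alternative chosen after seeing the data, kept every count within 1.5 times. With a replicate block, 15 members rose and 0 fell in high glucose against low glucose. The same block gave 6 rises and 15 falls in chrysin against high glucose, and 17 rises and 11 falls in chrysin against low glucose. Same-numbered libraries of different groups did not deviate together over the genes tested (correlations of -0.0153 to 0.00802). Such correlations cannot show whether a number marks a shared culture or day, which the labels do not state. PSMB10 and PSMA2 rest on 50 to 106 and 63 to 141 reads a library, which limits their precision.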

Other observations

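Several genes named after proteasome genes fall outside the symbol rule and are given as values. PSMG3-AS1, a long non-coding RNA that overlaps PSMG3 on the other strand, had 5.25, 5.32 and 5.81 FPKM with chrysin, 2.36, 1.97 and 1.62 FPKM in high glucose and 1.59, 1.32 and 1.18 FPKM in low glucose. Its difference between chrysin and high glucose was 1.27 ± 0.134 (standard error, adjusted p = 2.5e-05), larger than that of any proteasome subunit, while PSMG3 itself was not called. The high glucose level exceeded the low glucose level by 0.41 ± 0.134 (adjusted p = 0.048), a call lost in 13 of 19 other settings (adjusted p of 0.054 to 0.15 there). PSMA3-AS1, the antisense neighbour of PSMA3, averaged 25.1 FPKM with chrysin and 28.4 FPKM in high glucose, a fall of 0.17 ± 0.048 (adjusted p = 0.013). PSMC3IP, a meiotic recombination factor first found as a partner of PSMC3, averaged 53.8 FPKM with chrysin and 47.3 FPKM in high glucose, a rise of 0.18 ± 0.037 (adjusted p = 0.0022), while PSMC3 fell. PSME3IP1, which binds PSME3, averaged 157.7 FPKM with chrysin and 138.6 FPKM in high glucose, a rise of 0.19 ± 0.045 (adjusted p = 0.0063), while PSME3 rose. These genes were chosen after their values were seen. Without knowledge of strand, reads of an antisense gene and its partner cannot be told apart where they overlap.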
